A study of Mus musculus with 2 samples.

Results

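The cilia and flagella associated proteins (CFAPs) were followed through mouse spermatogenesis in a wild-type library and in a library labelled Zfp541-/-. The genes were chosen by name: every symbol in the deposited gene list that is Cfap followed by a number was taken, with or without a letter after it, which gave 26 of 31053 genes. They are Cfap20, Cfap36, Cfap43, Cfap44, Cfap45, Cfap46, Cfap52, Cfap53, Cfap54, Cfap57, Cfap58, Cfap61, Cfap65, Cfap69, Cfap70, Cfap73, Cfap74, Cfap77, Cfap97, Cfap99, Cfap100, Cfap126, Cfap157, Cfap161, Cfap206 and Cfap221. All 26 are annotated as protein-coding genes in GENCODE M21 on GRCm38 and lie on 13 chromosomes.

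The study sequenced single germ cells from testes of adult C57BL/6 mice. There was 1 library per genotype, wild type and Zfp541-/-. The ZFP541 protein has zinc fingers and is found in spermatocytes. The labels name no other allele, transgene or treatment in either group, and they do not say which part of Zfp541 was deleted or how many animals gave each library. Per the labels' protocol, tetraploid germ cells, which are meiotic cells after DNA replication, were sorted and sequenced with the 10x Chromium kit for 3' transcript ends, whereas the sample titles name whole testis. The authors' stage names run from differentiated spermatogonia (Diff.Spg1 to Diff.Spg3) through preleptotene (pre.L), leptotene (L), zygotene (Z), early, mid and late pachytene (eP, mP, lP), diplotene (D) and the first meiotic division (MI) to round spermatids (RS.1 to RS.3) and elongated spermatids (ES).

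CFAPs are a name series rather than 1 sequence family: it collects proteins of the axoneme, the ring of microtubule doublets around a central pair that runs through motile cilia and the sperm tail. Some sit inside the doublets, others on the central pair, the radial spokes or the dynein arms that drive sliding. In the male germ line the tail is built in spermatids, whereas transcripts of many tail genes are already made during pachytene, and loss of several CFAPs is known to give male infertility with malformed sperm tails.

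Unique molecular identifiers (UMIs), each a counted transcript molecule, numbered 108612781 in 8420 annotated wild-type cells and 119675250 in 8833 annotated cells of the library labelled Zfp541-/-. With 1 library per genotype, no difference below has a replicate check or a test, and the 95% intervals cover counting error only. Knockout-labelled cells were deeper, with median UMIs per cell of 18665 against 7945 in mid pachytene and 23690 against 9210 in late pachytene. Zfp541 itself was higher in the library labelled Zfp541-/-, at 81.9 against 28.1 counts per 1000000 UMIs (CPM) in mid pachytene and 70.6 against 35.8 CPM in late pachytene. A 3' tag outside the deleted part checks nothing, so every direction is drawn between the libraries as labelled. The libraries shared 42 cell barcodes, 17 of them annotated in both. In late pachytene the pachytene marker list summed to 28961 CPM (wild-type) and 23043 CPM (knockout-labelled), whereas the Sertoli, Leydig, peritubular and endothelial, and macrophage and red cell lists each summed to at most 13.2 CPM there. Round and elongated spermatids are haploid and would not be in a tetraploid sort, though they would be in whole testis as the titles have it, and the wild-type cells so annotated are used as such.

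In the wild-type library, CFAP transcripts were most abundant from mid pachytene to the second round spermatid stage. Their summed level was 1552 CPM in eP, 2743 in mP, 3075 in lP, 2729 in D, 3050 in MI, 2513 in RS.1, 2865 in RS.2 and 1578 in RS.3, and it was 338 CPM in ES. The 26 genes spread over a wide range: 24 reached 10 CPM in some wild-type stage of at least 50 cells, and 12 reached 100 CPM. Cfap36 alone gave 30.5% of the CFAP UMIs of wild-type late pachytene, and the 4 most abundant genes, Cfap36, Cfap97, Cfap206 and Cfap20, gave 60.5%. Because a 3' UMI counts a molecule whatever its length, levels of different genes are compared here without a length correction.

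Grouped by wild-type stage of peak, 12 genes were highest in pachytene, 2 in the first meiotic division and 11 in spermatids, while Cfap73 had 5 UMIs in the stage of its highest level and was left ungrouped. For 12 of the 26 genes the intervals of the highest and the next stage overlapped, so their order is not resolved. Scaling by the median of ratios instead of by total UMIs put 6 genes in the pachytene group, since it scales the stages differently.

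The pachytene group was led by Cfap36, whose product binds the small GTPase ARL3. Its level was 579 CPM in eP, 865 in mP, 939 (918 to 961) in lP, 816 in D, 908 in MI, 753 in RS.1, 774 in RS.2, 310 in RS.3 and 43.6 in ES. From mP to RS.2 it thus stayed between 753 and 939 CPM, and it dropped in the last spermatid stages. Cfap20, an inner junction protein that joins the tubules of each doublet, was highest in eP at 359 CPM (321 to 401) and declined stage by stage to 248 CPM in RS.1 and 27.4 in RS.3, apart from a level in MI (285) above that in D (266). Cfap65, of the central apparatus, had levels of 141 CPM in both mP and lP, and 58.9 in RS.1. Cfap70 (112 CPM in lP), Cfap43 (102 in mP), Cfap69 (90.0 in mP), Cfap57 (81.7 in lP), Cfap74 (64.4 in mP), Cfap46 (62.2 in mP), Cfap52 (60.4 in lP), Cfap54 (53.3 in lP) and Cfap99 (5.64 in lP) complete the group. Cfap46, a large central apparatus protein, fell away early, from 58.5 CPM in lP to 42.8 in D, 17.0 in RS.1 and 3.21 in RS.3.

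Cfap97 and Cfap53 were highest in the first meiotic division. Cfap97, the mouse relative of the fly gene hemingway, had 143 CPM in eP, 339 in lP, 378 (372 to 385) in MI and 122 in RS.2. Cfap53, a protein of the doublet lumen that is also needed for left-right patterning, had 14.5 CPM in eP, 150 in lP, 167 (163 to 171) in MI and 145 in RS.2. Cfap97 had thus dropped well below its maximum by RS.2, whereas Cfap53 had not.

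The spermatid group was led by Cfap206, a radial spoke protein, at 483 CPM (469 to 498) in RS.2 and 313 in lP. Cfap45, which lies inside the doublet, had 331 CPM in RS.2 and 136 in lP. Cfap126, also called Flattop and likewise found inside doublets, had 11.1 CPM in eP, 28.5 in mP, 34.7 in lP, 36.7 in D, 53.2 in MI, 84.5 in RS.1, 165 (157 to 174) in RS.2 and 136 in RS.3. Its level was thus higher in each stage up to RS.2, although the intervals of mP and lP overlap, as do those of lP and D. Cfap100, a tether of inner dynein arms, was nearly confined to spermatids: it had 5 UMIs (0.627 CPM) in lP, 29 UMIs (0.853 CPM) in MI, 6.85 CPM in RS.1, 68.3 in RS.2 and 109 in RS.3. Cfap161, a doublet inner protein, had 36.1 CPM in mP, 56.9 in lP, 100.5 in MI and 103 in RS.1, where its interval of 95.2 to 111 overlapped that of MI. Cfap157 (65.3 CPM in RS.2), Cfap44 (62.5 in RS.2), Cfap58 (53.6 in RS.2), Cfap77 (25.4 in RS.2), Cfap221 (25.3 in RS.3) and Cfap61 (19.3 in RS.3) were lower.

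**Figure D1:**
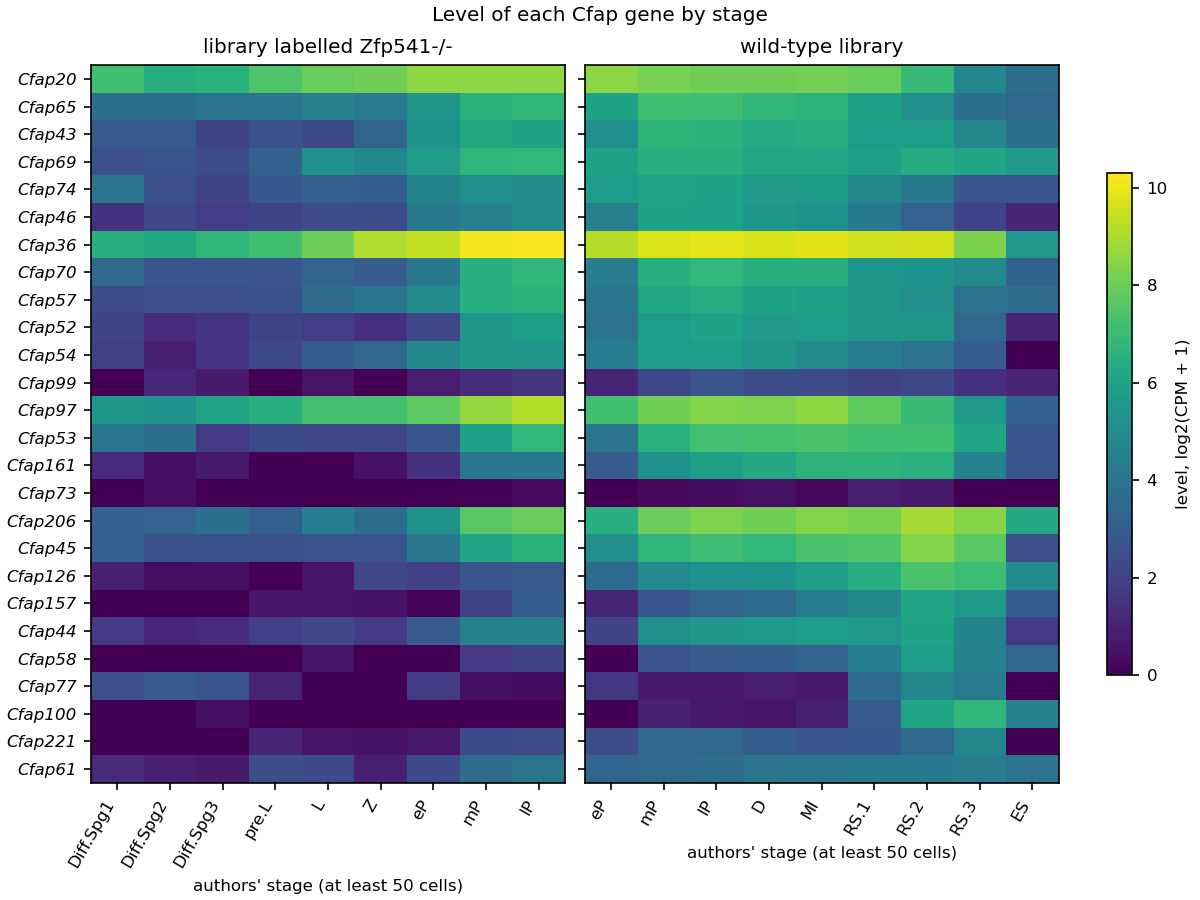
Level of each of the 26 genes (rows, ordered by wild-type stage of peak) in each stage of at least 50 cells (columns) of the library labelled Zfp541-/- (left) and the wild-type library (right); colour is log2 of CPM plus 1. Cfap36 is the brightest row in both panels, and the rows of Cfap126, Cfap157, Cfap58 and Cfap100 brighten in wild-type RS.2 and RS.3.

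Cells before pachytene came mostly from the library labelled Zfp541-/-, with 3210 cells against 122 wild-type ones. The summed CFAP level there was 540.97 CPM (529 to 553) in knockout-labelled cells and 573 CPM (493 to 661) in wild-type cells, and the intervals overlap. By stage the knockout-labelled level was 378 CPM in Diff.Spg1, 279 in Diff.Spg2, 336 in Diff.Spg3, 490.5 in pre.L, 795 in L, 1083 in Z and 1572 in eP. It was lowest in the middle spermatogonial stage and higher at each later one. No replicate is available for this order.

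Of the 26 genes, 10 reached 10 CPM in a knockout-labelled stage before pachytene: Cfap20, Cfap36, Cfap53, Cfap57, Cfap65, Cfap69, Cfap70, Cfap74, Cfap97 and Cfap206. Cfap36 had 87.9, 76.1 and 106 CPM in the 3 spermatogonial stages, 145 in pre.L, 262 in L and 535 in Z. Cfap20 had 144, 83.9 and 94.6 CPM in spermatogonia, 176 in pre.L, 238 in L and 270 in Z. Cfap97 had 42.3 CPM in Diff.Spg1, 87.0 in pre.L and 151 in both L and Z. These 3 genes gave most of the early CFAP signal. Cfap69, a central apparatus protein, had 8.26 CPM in pre.L, 38.3 in L and 27.3 in Z, and Cfap57, an inner dynein arm adaptor, had 4.95, 11.4 and 14.9 CPM. Cfap65 stayed between 12.7 and 21.1 CPM in all 6 stages, Cfap206 between 7.71 and 20.7. Cfap53 and Cfap74 were highest before pachytene in Diff.Spg1, at 15.0 and 14.6 CPM, and Cfap70 was just above 10 CPM there. The spermatid-group gene Cfap77 stood apart from this order: it had 10, 23 and 16 UMIs (4.70, 6.86 and 5.35 CPM) in the 3 spermatogonial stages of the library labelled Zfp541-/-, 2 UMIs (1.10 CPM) in pre.L, 0 in L and Z, 21 UMIs (2.45 CPM) in eP, and 0.348 CPM in mP.

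Within the library labelled Zfp541-/-, which held 13 cells after late pachytene and none after diplotene, 19 of the 26 genes were highest in lP, 3 in mP and 1 in eP. Of the other 3, Cfap77 was highest in Diff.Spg2, at 6.86 CPM, and Cfap73 and Cfap100 had 1 UMI each in the stage of their highest level, too few to place a peak.

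The pachytene comparison asks whether CFAP transcripts had the same levels in both libraries before the stage at which knockout-labelled cells are no longer found. A gene counts as measured at 10 CPM or more in the higher library, and as lower or higher at a ratio of at least 2-fold, which is 1 on the log2 scale. Late pachytene is taken as a stage. Its cells fell into clusters 0, 5 and 22 with 486, 107 and 234 wild-type and 959, 884 and 102 knockout-labelled cells, and none of these clusters had a marker of pachytene or of another type among its 10 leading genes. Mid pachytene is compared by cluster number, because cluster 4 had Tex101 and Ccnb1ip1, markers of leptotene-zygotene and preleptotene, and no pachytene marker among its 10 leading genes. Cluster 2 had no marker of pachytene or of another type there, and clusters 7 and 11 each had the pachytene marker Piwil1.

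In late pachytene 19 of the 26 genes were measured, 18 of them at 10 CPM or more in both libraries. The other, Cfap126, passed the level filter only through the wild-type library. Cfap126, Cfap161 and Cfap74 were at least 2-fold lower in the library labelled Zfp541-/-, and 0 genes were at least 2-fold higher. Over all 7635 measured genes, 14.3% were lower and 17.4% were higher, so the share of CFAP genes that were lower, 15.8%, is near that of all genes. Counting the 3 lower genes, 13 of the 19 log2 ratios were below 0, against 44.7% of all measured genes. The whole interval was below 0 for 11 of the 19, against 37.4% of all genes, and above 0 for 6, against 47.3%. The median was -0.40, against 0.11 for all measured genes. The 3 lower genes became 5 without cluster 22 and 6 with the 3 clusters given equal weight.

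The summed level in late pachytene was nevertheless close, at 3075 CPM in the wild-type library and 3300 CPM in the library labelled Zfp541-/-. The 4 most abundant genes gave 71.9% of knockout-labelled CFAP UMIs against 60.5% in the wild-type library. Without them, the sum was 926 CPM against 1216 CPM. Of the 4 abundant genes only Cfap206 was below its wild-type level, and the sum of the others was below theirs.

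**Figure D2:**
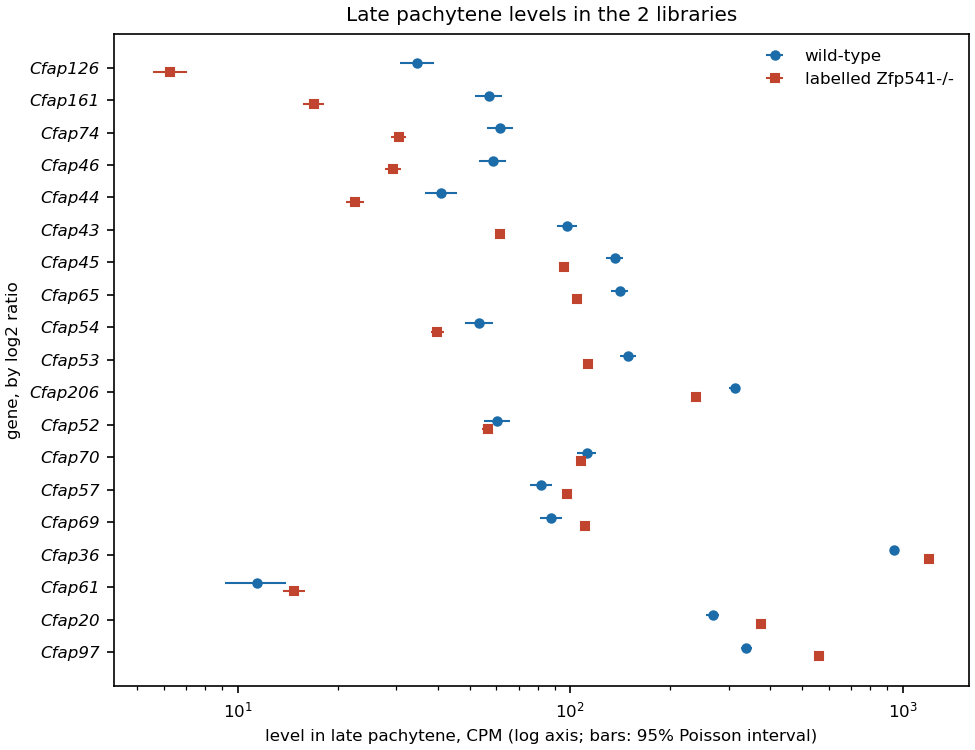
Late pachytene level in CPM (log axis) of the 19 measured genes, ordered by log2 ratio, in the wild-type library (circles) and the library labelled Zfp541-/- (squares), with 95% Poisson intervals of counting error. The squares lie left of the circles from Cfap126 (34.7 against 6.27 CPM) down to Cfap206 and right of them from Cfap57 to Cfap97 (339 against 561 CPM).

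The upstream sequences of the 3 lower genes and of the most abundant gene are shown, so that the regions next to the transcription starts can be set side by side. They end at the base before the outermost annotated start, are read 5' to 3' on the gene's strand, and come from the RefSeq promoter table for GRCm38.p6. Capitals mark the half-site GTTGCC, the short motif that RFX factors of ciliary genes bind, or its reverse complement. Cfap126 lies at chr1:171113918-171126967 on the plus strand, Cfap161 at chr7:83774101-83794880 on the minus strand, Cfap74 at chr4:155409190-155466823 on the plus strand and Cfap36 at chr11:29221532-29247409 on the minus strand.
Cfap126, chr1:171113768-171113917, plus strand: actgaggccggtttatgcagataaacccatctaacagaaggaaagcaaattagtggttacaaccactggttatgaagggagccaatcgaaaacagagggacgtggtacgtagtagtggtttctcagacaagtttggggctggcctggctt
Cfap161, chr7:83794881-83795030, minus strand: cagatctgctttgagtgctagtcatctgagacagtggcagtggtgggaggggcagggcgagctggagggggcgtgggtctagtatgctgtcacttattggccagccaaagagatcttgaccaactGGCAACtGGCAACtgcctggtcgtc
Cfap74, chr4:155409040-155409189, plus strand: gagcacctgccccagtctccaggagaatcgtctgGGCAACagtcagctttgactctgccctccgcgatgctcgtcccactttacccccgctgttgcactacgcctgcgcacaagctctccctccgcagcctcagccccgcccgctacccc
Cfap36, chr11:29247410-29247522, minus strand: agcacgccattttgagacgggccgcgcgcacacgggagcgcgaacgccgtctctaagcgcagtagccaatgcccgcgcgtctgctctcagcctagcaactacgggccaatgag

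The table held 23 promoters of 20 of the 26 genes, each 300 bases long (250 before the start and 50 from it on). Cfap53, Cfap54, Cfap65, Cfap73, Cfap97 and Cfap157 had none there. The half-site was found on either strand in 8 of the 23 promoters (34.8%), those of Cfap20, Cfap44, Cfap46, Cfap58, Cfap74, Cfap100 and Cfap161, against 12.5% of all 32851 promoters of that length. It was present at 3 places in the window of Cfap161, and it was in none of the windows of Cfap126 and Cfap36. The 5 measured genes with the half-site had late pachytene log2 ratios of -1.75 (Cfap161), -1.02 (Cfap74), -0.997 (Cfap46), -0.86 (Cfap44) and 0.48 (Cfap20). Measured genes whose searched promoters lacked it had -2.47 (Cfap126), -0.67 (Cfap43), -0.50 (Cfap45), -0.39 (Cfap206), -0.10 (Cfap52) and -0.05 (Cfap70). Also without it, Cfap57 had 0.26, Cfap69 0.33, Cfap36 0.35 and Cfap61 0.37. The measured genes Cfap53, Cfap54, Cfap65 and Cfap97 had no promoter to search. A link between the half-site and the ratios was not tested. Cfap126, with the lowest ratio, had no half-site. A match of letters is a description and not a bound site, and its absence says only that these letters are not in the window.

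Among the 7 doublet inner proteins, 6 were measured in late pachytene and 5 were below the wild-type level, with a median log2 ratio of -0.45. Wild-type cells held 277 UMIs of Cfap126 (34.7 CPM, 30.7 to 39.1), and the deeper knockout-labelled cells held 294 (6.27 CPM), a log2 ratio of -2.47 (-2.71 to -2.23), which is 5.53-fold lower. Cfap161 had 56.9 CPM and 16.9 CPM, a log2 ratio of -1.75 (-1.92 to -1.58). These are the largest differences among the measured CFAP genes of this stage, and neither pair of intervals overlaps. Cfap45 had 136 and 96.1 CPM, Cfap53 had 150 and 113 CPM, and Cfap52 had 60.4 and 56.5 CPM, a log2 ratio of -0.10 whose interval of -0.24 to 0.05 includes 0. Cfap20 was on the other side, at 268 and 374 CPM, a log2 ratio of 0.48. Genes of 1 structure inside the doublet therefore had ratios on both sides of 0.

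Of the 6 central apparatus genes, 5 were measured, with a median log2 ratio of -0.42. Cfap74 had 61.7 CPM in the wild-type library and 30.5 CPM in the library labelled Zfp541-/-, a log2 ratio of -1.02 (-1.16 to -0.86). Cfap46 had 58.5 and 29.3 CPM, a log2 ratio of -0.997, just short of the 2-fold limit. These ratios lie within each other's intervals, so only the limit separates Cfap74 from Cfap46. Cfap65 (141 and 105 CPM) and Cfap54 (53.3 and 39.9 CPM) both had a log2 ratio of -0.42. Cfap69 was the exception, at 87.9 CPM in the wild-type library and 111 CPM in the library labelled Zfp541-/-, a log2 ratio of 0.33. The sixth, Cfap221, was under 10 CPM in both libraries.

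Of the 6 genes for dynein arms, their tethers and adaptors, 4 were measured, with a median log2 ratio of -0.36. Cfap44 and Cfap43, which tether inner arms, had log2 ratios of -0.86 (40.9 and 22.6 CPM) and -0.67 (97.9 and 61.6 CPM). Cfap70, linked to outer arms, had 112 and 108 CPM, and its log2 ratio of -0.05 had an interval of -0.16 to 0.05. Cfap57 had 81.7 and 97.8 CPM, a log2 ratio of 0.26. The tether gene Cfap100 was under the level filter: it had 9 UMIs in wild-type mP and 5 in wild-type lP, and 0 UMIs in mP and lP of the library labelled Zfp541-/-. Wild-type cells before pachytene had 1 UMI of this spermatid transcript in 122 cells, which is 0.008 per cell against 0.007 in mP and 0.006 in lP. That 1 UMI is too few to say whether these levels differ, and no fold is given.

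The 2 spoke genes differed in direction. Cfap206 had 313 CPM in the wild-type library and 239 CPM in the library labelled Zfp541-/-, a log2 ratio of -0.39. Cfap61, which belongs to a complex at the spoke base, had 11.4 and 14.8 CPM, a log2 ratio of 0.37. Cfap36 had 939 and 1198.5 CPM, a log2 ratio of 0.35, and Cfap97 had 339 and 561 CPM, a log2 ratio of 0.73 (0.67 to 0.79), the highest among the measured CFAP genes. The genes Cfap58 and Cfap157, linked to centriole and basal body, and Cfap73, Cfap77 and Cfap99 were not measured. The 3 measured genes nearest to a log2 ratio of 0 were Cfap70, Cfap52 and Cfap57.

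Single clusters were compared in the same way. In late pachytene cluster 0, the largest, Cfap126, Cfap161, Cfap74, Cfap46, Cfap44 and Cfap43 were at least 2-fold lower and 0 genes were higher among 19 measured, against 15.2% lower and 15.5% higher of all genes there. Cluster 5 had 6 of 20 genes lower, where 15.7% of all genes were, and cluster 22 had 5 of 21 lower, where 15.2% were. In both, 0 of the CFAP genes were higher, against 16.1% (cluster 5) and 18.0% (cluster 22) of all genes. Of the lower genes, Cfap126 passed the level filter only through the wild-type library in clusters 0, 5 and 22. The same held for Cfap221 in clusters 5 and 22 and for Cfap44 in cluster 22. Cfap44 was at least 2-fold lower in each of the 3 clusters, with log2 ratios of -1.38, -1.14 and -1.52 in clusters 0, 5 and 22, although its ratio over the whole stage was -0.86. Cfap46 likewise had -1.42 and -1.29 in clusters 0 and 5 and -0.92 in cluster 22. In wild-type cluster 22 the level of Cfap46 was 27.5 CPM, against 66.5 in cluster 0, and the level of Cfap44 was 20.5 CPM, against 45.0.

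In mid pachytene, cluster 2 had 4 of 19 measured genes lower (11.7% of all genes), cluster 4 had 2 of 18 (8.47%), cluster 7 had 4 of 19 (12.8%) and cluster 11 had 4 of 20 (10.6%), with 0 genes higher in each. Of all genes, 15.9%, 16.4%, 15.2% and 14.8% were higher in clusters 2, 4, 7 and 11. Among the lower genes, Cfap126 in each of these clusters and Cfap221 in cluster 11 passed the level filter only through the wild-type library. Over the stage as annotated, 3 of 19 were lower (10.6% of all genes) and 0 were higher (15.0%), with a median log2 ratio of -0.31 against 0.15 for all genes, and without cluster 4 the number lower was 5. Cfap126 was 28.5 CPM in the wild-type library and 5.19 CPM in the library labelled Zfp541-/-, a log2 ratio of -2.46. Cfap46 had 62.2 and 21.5 CPM, a log2 ratio of -1.53 (-1.68 to -1.39). Cfap161 had 36.1 and 15.4 CPM, a log2 ratio of -1.23. Cfap46 was lower by at least 2-fold in each of the 4 clusters, from -1.74 in cluster 11 to -1.33 in cluster 4. Cfap74 crossed the limit in clusters 2 and 7, at -1.17 and -1.04, and had -0.87 in cluster 11 and -0.60 in cluster 4.

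Of the 18 genes measured in all 7 mid and late pachytene clusters, 10 had a log2 ratio below 0 in each cluster: Cfap44, Cfap45, Cfap46, Cfap53, Cfap54, Cfap65, Cfap74, Cfap126, Cfap161 and Cfap206. Cfap20, Cfap36 and Cfap97 were above 0 in each, and Cfap43, Cfap52, Cfap57, Cfap69 and Cfap70 were on both sides. Cfap126 ranged from -3.26 in cluster 4 to -2.16 in cluster 7, so its values lay below those of every other gene of the 18 in each cluster. Cfap97 ranged from 0.30 to 0.82. Clusters of 1 library share that library and are not replicates of each other. The share of all genes with the same sign in all 7 clusters was not computed, so these counts do not set CFAP genes apart.

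**Figure D3:**
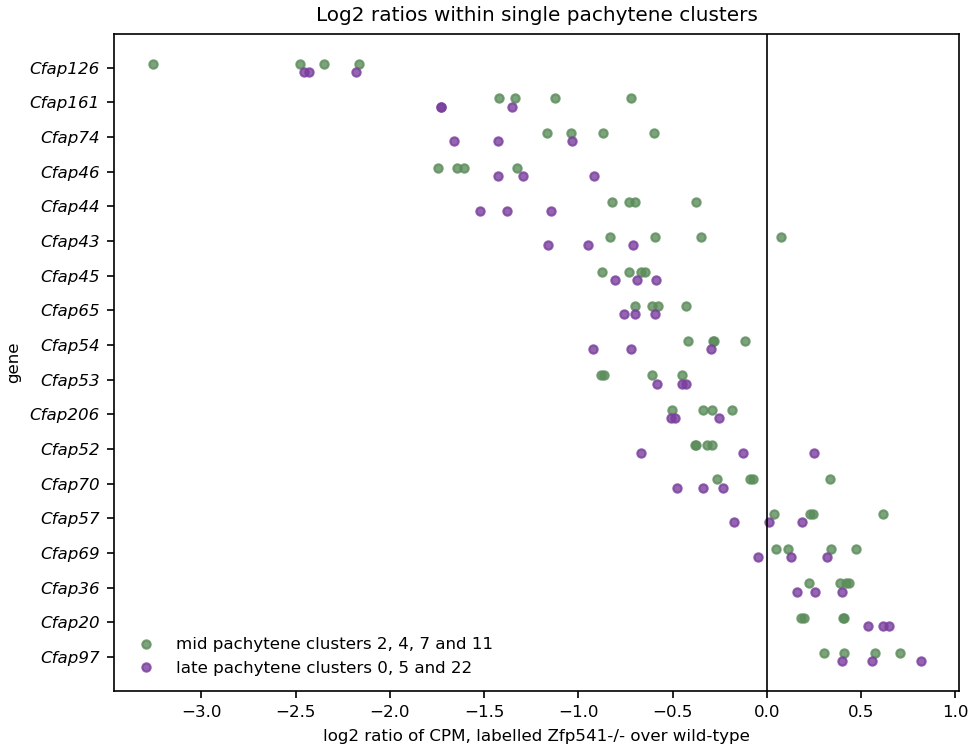
Log2 ratio of CPM, library labelled Zfp541-/- over wild-type, for the 18 genes measured in each of 7 pachytene clusters; each point is 1 cluster, in green for mid and purple for late pachytene. The points of Cfap126 lie between -3.26 and -2.16, and those of Cfap36, Cfap20 and Cfap97 all lie right of the line at 0.

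Early pachytene was compared within clusters 12 and 16, which each had 0 pachytene markers and the spermatogonium marker Sohlh2 among their 10 leading genes, and which the libraries mix differently (75 and 155 wild-type cells, 713 and 451 knockout-labelled cells). In cluster 12, 4 of 15 measured genes were lower (8.77% of all genes) and 3 were higher (14.4%), but 13 of the 15 intervals included 0. Of the lower genes there, Cfap61 and Cfap53 passed the level filter only through the wild-type library, with 4 and 3 UMIs. Of the higher ones, Cfap70 and Cfap57 passed only through the library labelled Zfp541-/-. In cluster 16, 5 of 16 were lower (8.7% of all genes) and 1 was higher (20.4%). Of the lower genes, Cfap126, Cfap52 and Cfap53 passed the level filter only through the wild-type library, with 10 UMIs each. There Cfap126 had 16.6 and 4.28 CPM, a log2 ratio of -1.98 (-3.19 to -0.66). Cfap206 stood at 113 and 53.0 CPM (-1.10, -1.50 to -0.68), and Cfap97 at 126 and 245 CPM (0.94, 0.61 to 1.31). All 16 genes were also measured in late pachytene: 13 had the same sign in both, and Cfap43, Cfap54 and Cfap69 had opposite signs, each with an interval in cluster 16 that includes 0. The share of all genes with the same sign in both was not computed.

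CPM compares shares of a cell's transcripts, and knockout-labelled cells held more UMIs. Counted per cell, 17 of the 19 measured genes had more UMIs in knockout-labelled than in wild-type cells in mid and in late pachytene. The 2 with fewer in late pachytene were Cfap126, with 0.335 UMIs per wild-type cell and 0.151 per knockout-labelled cell, and Cfap161, with 0.549 and 0.408. In mid pachytene they were Cfap126 (0.229 and 0.101) and Cfap46 (0.501 and 0.420). The median log2 ratio of UMIs per cell in late pachytene was 0.92 for the 19 genes and 1.43 for all measured genes. Knockout-labelled cells held 2.42 (mid pachytene) and 2.50 (late pachytene) times the UMIs of wild-type cells. The share of all genes with more UMIs per cell was not counted. More RNA per cell and deeper sampling of each cell cannot be told apart in these counts.

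**Figure D4:**
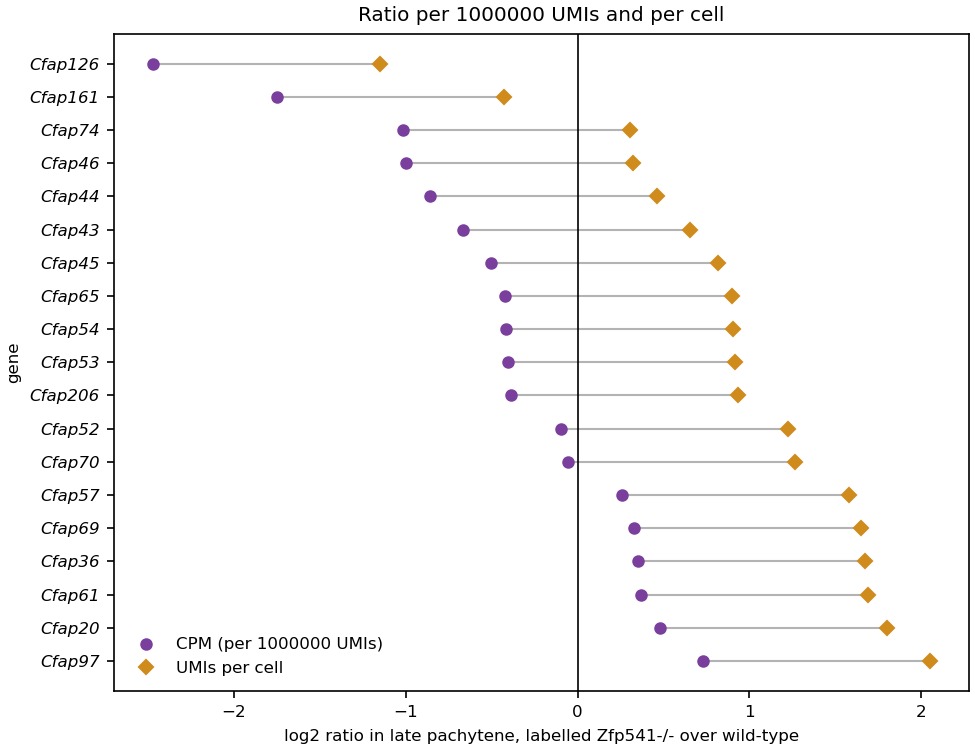
Log2 ratio in late pachytene, library labelled Zfp541-/- over wild-type, of CPM (circles) and of UMIs per cell (diamonds), for the 19 measured genes; a grey line joins the values of a gene. The diamonds of Cfap126 and Cfap161 alone lie left of the line at 0.

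Shares of cells with a UMI were compared after thinning each cell to 3000 UMIs, which left out 2 wild-type and 1 knockout-labelled late pachytene cells. The share with Cfap126 was 8.61% (exact interval 6.78 to 10.7%) in the wild-type and 1.95% (1.39 to 2.67%) in the knockout-labelled library, against 28.9% and 14.0% at full depth. For Cfap161 the thinned shares were 16.4% and 4.68%, and at full depth 42.9% and 31.9%. For Cfap74 they were 17.0% and 7.51%, whereas at full depth the order was the opposite, with 42.6% and 47.2%. Before pachytene, where Cfap126 was near 0, its share at full depth was 1.64% (122 wild-type cells) and 0.436% (3210 knockout-labelled cells), whose median depth ran from 1685 to 2497.5 and from 2276 to 9280.5 UMIs by stage.

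Transcripts of late spermatids were also counted in wild-type cells of earlier stages. The protamine and transition protein transcripts Prm1, Prm2, Tnp1 and Tnp2 of late spermatids had 2.06 UMIs per cell in wild-type lP and 2.20 in wild-type mP, and 1 and 0 UMIs in all in knockout-labelled lP and mP. They had 1.46 UMIs per cell in wild-type cells before pachytene, where Cfap126 had 0.016 and Cfap161 had 0 UMIs per cell, against 0.335 and 0.549 in wild-type lP. In the 140 wild-type late pachytene cells without any of these UMIs, the log2 ratio was -2.59 for Cfap126, -2.03 for Cfap161 and -0.94 for Cfap74. In the 234 such mid pachytene cells it was -2.69 for Cfap126 and -1.52 for Cfap161. Leaving out the cells with these UMIs moved 19 of the 30 ratios of named genes in mP and lP, among them Cfap65 in mP, from -0.55 to -0.21. Cfap70, near 0 in late pachytene as a whole, had 0.24 there. Cells with 0 such UMIs can still hold RNA of other spermatid genes, and its part in the differences was not tested. Cfap97 had a log2 ratio of 1.05 in the late pachytene cells, which makes it the 1 gene past the 2-fold limit on the higher side there.

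Motile cilia also occur on epithelia next to the testis. Whether their diploid cells were left out is not known, because the protocol names a tetraploid sort and the titles name whole testis. The 7 markers of ciliated epithelium summed in late pachytene to 326 CPM (wild-type) and 157 CPM (knockout-labelled), and in mid pachytene to 300.3 and 128 CPM. Their part in the CFAP differences was not tested. Of these markers, Foxj1, the master regulator of motile cilia, had 1 wild-type and 22 knockout-labelled UMIs in late pachytene, and Tmem212 had 0 in both. At 0.125 and 0.469 CPM, Foxj1 differed in the opposite direction to the list's sum and does not stand for the list. The whole list had 2603 and 7346 UMIs there, so other markers, not given singly here, made up nearly all of its sum. Of the 7 markers, 1 was at 0 in the wild-type (Tmem212) and 2 in the knockout-labelled cells (Tmem212 and Sec14l3).

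The other genes of the axoneme had late pachytene values on both sides of 0, in lists that, like the CFAP genes, were chosen with earlier results of these data known. Over all measured genes, as above, 14.3% were lower and 17.4% higher. Of 14 measured tektins and inner proteins, 6 were lower and 0 higher, with a median log2 ratio of -0.30. Their most abundant gene, Mns1, which lies in the doublet lumen, had 540 CPM in the wild-type library and 958 CPM in the library labelled Zfp541-/-. Of 15 central apparatus genes 3 were lower and 1 was higher, with a median of -0.36, and Spag17 had 393 and 307 CPM. Of 23 radial spoke and nexin genes 5 were lower and 0 higher (median -0.11), and Ropn1l, a spoke protein, had 3805 and 1660 CPM. Dynein arm genes (18 measured, 3 lower, 0 higher) had a median of -0.08, with Dnah8 at 655 and 753 CPM. The factors that assemble those arms in the cytoplasm (13 measured, 2 lower, 1 higher) had a median of 0.00, with Dnaaf1 at 529 and 404 CPM. Intraflagellar transport genes (24 measured, 3 lower, 0 higher) had a median of 0.19, with Ift43 at 511 and 222 CPM. So the medians of all these lists but intraflagellar transport were below the 0.11 of all genes, and that of intraflagellar transport was above it. The CFAP genes of the doublet, central apparatus and dynein arms also had medians below 0.11, so this was not particular to 1 structure. The 2 spoke genes had opposite log2 ratios, -0.39 and 0.37, so their median is not counted here.

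Regulators of ciliary and postmeiotic transcription were a list of 16, of which 7 were measured in late pachytene, 1 lower and 0 higher. Rfx2, the main RFX factor of spermatogenesis, had 58.7 CPM in the wild-type library and 96.2 CPM in the library labelled Zfp541-/-, a log2 ratio of 0.71 (0.58 to 0.85). Rfx3 was low, at 2.01 and 7.87 CPM. Tcfl5, a pachytene transcription factor, had 480.3 and 237 CPM, a log2 ratio of -1.02 (-1.07 to -0.97), which made it the lower one. Sox30, which activates spermatid genes, had 46.2 and 30.6 CPM, a log2 ratio of -0.60. Mybl1, the A-MYB factor of pachytene, had 67.1 and 63.2 CPM, a log2 ratio of -0.09 (-0.22 to 0.05). Crem, a factor of spermatid transcription, had 151 and 179 CPM, a log2 ratio of 0.24, and Tbpl1, the most abundant of the list, had 592 and 452 CPM.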

How the data were processed

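Cell Ranger 3.1.0, Seurat 3.2.0 and the mm10 genome were used, per the submitters' processing notes. The deposited matrices hold whole-number UMI counts per gene and barcode, with no normalisation. A deposited table of cells, made by the authors, lists each cell's total count, the percent of its UMIs from mitochondrial genes, a cluster and a stage. The total and the percent served only as checks and as a filter tried as an alternative. No doublet caller was run, and how the authors treated doublets was not stated in the labels.

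UMIs were summed per gene, stage or cluster, and library, and scaled to 1000000 (Python 3.11.15, numpy 2.4.6, pandas 2.3.3). Log2 ratios had 0.5 counts added to each sum. Intervals at 95% are exact Poisson (levels), exact conditional binomial (ratios) and exact Clopper-Pearson (shares), for counting error only. A count of 0 was read as allowing 3 counts. Clusters with fewer than 20 cells in a library were not compared, and a peak stage needed at least 20 UMIs. The ratio and interval code was tested on simulated data.

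The genes and lists were chosen with earlier results of these data known. Named in the text are genes past the 2-fold limit, the 3 most abundant of each peak group, those of at least 10 CPM before pachytene, the 3 nearest to a ratio of 1 in late pachytene, and the most abundant gene of each axoneme list. Other members are named to account for all 26. Cfap77 in spermatogonia, Cfap44 within clusters and Cfap100 were singled out after their values were seen. Alternatives were the median of ratios, other level filters, other counts added, thinned cells, per-cell means, equal cluster weights and a stricter mitochondrial filter. Same-strand genes overlap Cfap43, Cfap46, Cfap77 and Cfap97, whose UMIs are less certain.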

Additional observations from a re-analysis of the deposited data

Results flagged for a closer look

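Barcodes outside the authors' annotation, which the comparisons above do not use, also held CFAP transcripts. In the 4219 unannotated wild-type barcodes the summed level was 2532 CPM (2511 to 2553), against 2738 CPM in annotated cells of that library, and in the 2747 unannotated barcodes of the library labelled Zfp541-/- it was 1791 CPM (1765 to 1816), against 2666 CPM. A count of 0 would allow 0.131 and 0.282 CPM. All 26 genes were found in both sets, and Cfap36 was the most abundant, at 729 and 653 CPM. These barcodes have no stage, so the levels were not compared between the libraries.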

How the results depend on the processing

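No paired analysis was possible because each genotype had 1 library, and no replicate could be left out. In mid pachytene the 3 genes at least 2-fold lower became 6 with a 1 CPM filter, 8 with no level filter, 1 with a 50 CPM filter and 5 without cluster 4. The median of -0.31 became -0.42 with the median of ratios, -0.55 with the 1 CPM filter, -0.64 with no filter and -0.45 without cluster 4. In late pachytene the 3 lower genes became 5 with the 1 CPM filter, 7 with no filter, 6 with clusters at equal weight and 5 without cluster 22. The 0 higher genes became 1 in cells without protamine or transition protein UMIs. The median of -0.40 became -0.58 with equal weights and -0.52 without cluster 22. In cluster 12 the median of -0.07 reversed to 0.11 with the 50 CPM filter, which tests fewer genes. The 12 genes with a pachytene peak became 6 with the median of ratios. The summed knockout-labelled level before pachytene, 540.97 CPM, became 559 in thinned cells and 642 as a mean of per-cell CPM. Leaving out cluster 4, cluster 22 or cells with protamine or transition protein UMIs was chosen after seeing the data. Scaling by the median of ratios shifts every log2 ratio by -0.11 in mP, -0.08 in lP, -0.07 in cluster 12 and -0.19 in cluster 16. Cfap70, near 0, had a log2 ratio of 0.11 in mP and 0.24 in lP in cells without protamine or transition protein UMIs. The other 106 recomputed summary values stayed within the limits set, which allowed wide shifts where counts are low. Within them, the cluster 12 median of -0.07 became -0.36 with the 1 CPM filter, -0.68 with no filter and -0.27 in thinned cells. The 11 genes with a spermatid peak became 15 with the median of ratios. Of 30 ratios of named genes, 13 moved with the median of ratios, 13 with equal cluster weights and 9 in thinned cells, and 0 reversed. Depth limits the low genes most: in late pachytene Cfap100 had 5 UMIs in the wild-type library.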
